A study of Mus musculus with 4 samples.

Results

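The alpha-arrestin genes Arrdc1, Arrdc2, Arrdc3, Arrdc4 and Txnip were examined in a map of chromatin bound by the transcription factor ATF4 in mouse regulatory T cells. Members were taken by gene symbol, and every ATF4 peak assigned to them was used, which gave 5 of 4544 peaks over 3 of the 5 genes. DNA pulled down with an ATF4 antibody was sequenced (ChIP-seq) from 2 samples, with 2 input samples of sheared chromatin, all from enriched CD4+CD25+ cells labelled as regulatory T cells. The labels name spleen as the tissue and the study's design adds lymph nodes. They give no genotype, strain, age or treatment, and do not say whether the replicates came from separate mice. The deposited result is a single peak list on build mm10. It holds no value per sample and no read total, so no value below has a replicate error, the depth is unknown, and no test was run on the members. These genes were selected on the peaks of this same list, whose fold enrichments and positions were known when they were chosen. The list holds no expression values, and the labelled cell type was therefore not checked against expression of its markers.

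Alpha-arrestins are adaptor proteins with an arrestin fold and short PPxY motifs, through which they bring ubiquitin ligases of the NEDD4 family to receptors and transporters at the cell surface. TXNIP binds and inhibits thioredoxin and drives the glucose transporter GLUT1 into the cell, and ARRDC4 also lowers glucose uptake. Txnip is a well known gene induced by glucose, through the factors MondoA and ChREBP with their partner MLX, which bind paired E-box-like sequences in its promoter. ATF4 is a basic leucine zipper factor of the amino acid and endoplasmic reticulum stress responses, and with C/EBP partners it binds composite sites known as CARE, whose core is TGATGNAA.

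Promoter sequences of 3 members are shown first, because the position of the peaks within them and the letters they hold are what the results turn on. They are RefSeq sequences of build GRCm38.p6, printed in the direction of transcription from 250 bases before an annotated start to 30 bases after it. In those of Arrdc3 (chr13:80883172-80883451, plus strand) and Txnip (chr3:96557707-96557986, plus strand), capitals mark the bases inside the ATF4 peak. In that of Arrdc4 (chr7:68749209-68749488, minus strand), which has no peak, capitals mark CCAAT on either strand and the E-box CACGTG.
Arrdc3: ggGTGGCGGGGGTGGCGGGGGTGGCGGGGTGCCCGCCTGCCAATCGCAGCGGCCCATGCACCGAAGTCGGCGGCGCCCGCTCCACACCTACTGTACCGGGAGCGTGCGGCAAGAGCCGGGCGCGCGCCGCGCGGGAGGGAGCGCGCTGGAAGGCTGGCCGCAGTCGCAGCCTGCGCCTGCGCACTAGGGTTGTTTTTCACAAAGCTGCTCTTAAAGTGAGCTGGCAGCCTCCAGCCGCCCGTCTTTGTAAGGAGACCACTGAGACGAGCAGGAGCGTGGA
Txnip: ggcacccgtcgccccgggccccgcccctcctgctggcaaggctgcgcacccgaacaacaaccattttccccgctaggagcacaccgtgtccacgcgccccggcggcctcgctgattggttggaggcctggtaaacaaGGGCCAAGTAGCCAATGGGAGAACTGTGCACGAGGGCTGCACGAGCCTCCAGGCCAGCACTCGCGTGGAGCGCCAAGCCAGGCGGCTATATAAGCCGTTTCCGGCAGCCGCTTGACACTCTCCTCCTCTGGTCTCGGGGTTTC
Arrdc4: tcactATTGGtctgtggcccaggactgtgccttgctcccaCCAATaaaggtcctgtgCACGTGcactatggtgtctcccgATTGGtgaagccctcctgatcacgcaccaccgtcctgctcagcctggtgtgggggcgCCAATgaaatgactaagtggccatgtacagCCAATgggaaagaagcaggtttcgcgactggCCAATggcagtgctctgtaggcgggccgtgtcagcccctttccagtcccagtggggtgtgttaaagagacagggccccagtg

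Of the 5 genes, 3 had at least 1 assigned peak and 2 had none. Among 21887 protein-coding genes on chromosomes 1 to 19, X and Y, 12.9% had an assigned peak and 11.3% had a peak of the authors' Promoter class. All 5 peaks of the members were of the Promoter class, and 4 of them lay over the start of the transcript they were assigned to. A peak over the assigned start was listed for 7.86% of protein-coding genes. Counted by peaks, 3375 of all 4544 were of the Promoter class, and 44.7% lay over the assigned start. Peaks in the list reached down to a −log10 q of 1.02, so the absence of a peak at Arrdc2 and Arrdc4 means that nothing was listed there at that limit.

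Arrdc3 encodes an adaptor for the degradation of membrane proteins such as integrin β4, and it held the strongest peak of the family. This peak had a fold enrichment of 14.9 at its summit and a −log10 q of 148.0, both the authors' values. It ranked 35 of 4544 by fold enrichment and 86 by −log10 q, and 0.0822% of protein-coding genes had a peak at least as strong. The median fold enrichment of the list was 3.30. The peak lay on chromosome 13 from 80883174 to 80883651, was 478 bp wide, and reached from 210 bp before the start of the noncoding transcript NR_153410.1 to 267 bp after it. Its summit lay 68 bp after that start and 30 bp after another RefSeq start of the gene.

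Arrdc3 had 2 further peaks inside the gene. The middle peak, 187 bp wide at 80884517 to 80884703, had a fold enrichment of 3.32 and a −log10 q of 5.71, both close to the medians of the list. The third peak, at 80885142 to 80886141, was 1000 bp wide and covered the start of the predicted transcript XM_030247081.1, which lies 2285 bp downstream of the first start. It also covered a RefSeq start 426 bp further on. Its fold enrichment was 3.52 and its −log10 q 17.9. The first peak was thus 4.24 times as high as the third in fold enrichment, and the summits of these peaks were 2031 bp apart. Gaps of 865 bp and 438 bp separated the 3 peaks. At least 3 peaks were listed for 142 of 21887 protein-coding genes, or 0.649%. Among the 2824 protein-coding genes with an assigned peak, the share with at least 3 was 5.03%.

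Txnip had a single peak, over its start on chromosome 3 at 96557844 to 96558205. Its fold enrichment was 5.45 and its −log10 q 54.5, and it ranked 425 by the former and 235 by the latter. The peak was 362 bp wide, and its summit lay 26 bp after the start of NM_001009935.2. The span of the long noncoding RNA gene Gm15441 also covers this peak, and the list assigned the peak to Txnip alone. Among the 100 peaks closest to it in fold enrichment, from 5.27 to 5.64, the median −log10 q was 20.5, and 95 of them had a lower −log10 q than Txnip. Their median width of 357.5 bp was close to that of the Txnip peak.

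Arrdc1, which recruits the sorting protein TSG101 to the plasma membrane and drives the budding of small vesicles, had a single peak at its start. It lay on chromosome 2 from 24934916 to 24935259, with a fold enrichment of 4.67 and a −log10 q of 19.2. It ranked 715 by fold enrichment and 610 by −log10 q. The gene is on the minus strand, and the summit lay 27 bp after the start of the assigned transcript XM_006497842.3. A RefSeq start 116 bp further upstream lay 22 bp outside the peak.

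By fold enrichment the order was Arrdc3, Txnip and Arrdc1, with the first 2.74 times as high as Txnip, and Txnip 1.17 times as high as Arrdc1. The order was the same by −log10 q. Without replicate values it cannot be said whether the small step between Txnip and Arrdc1 exceeds replicate error. Arrdc3 and Txnip were among the 316 protein-coding genes, 1.44% of all, that had at least 1 of the 455 strongest peaks, which reached down to a fold enrichment of 5.34. Arrdc1 was not.

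**Figure D1:**
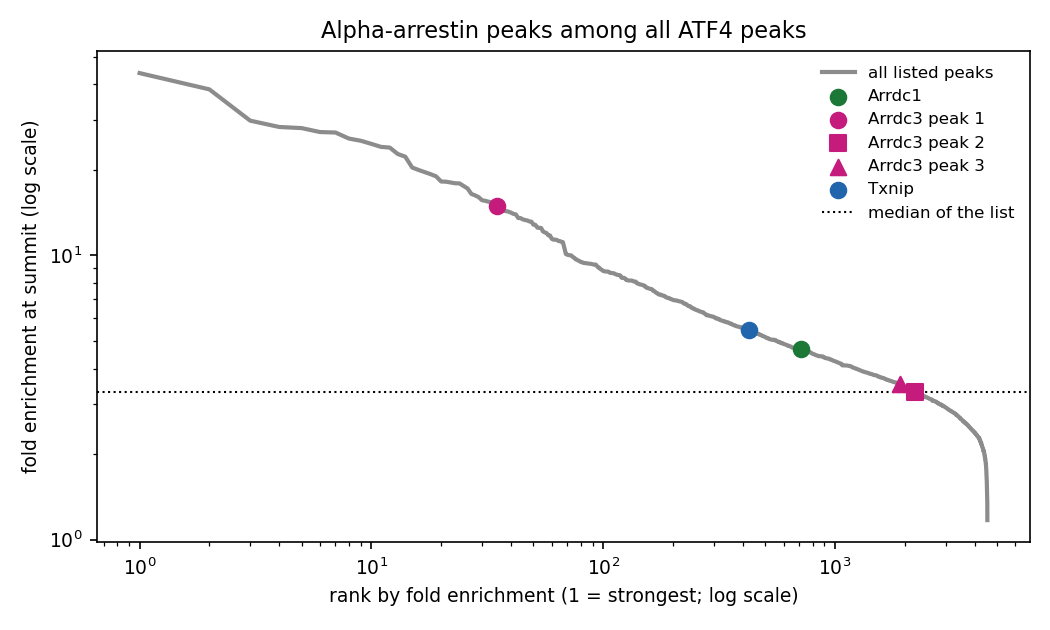
Fold enrichment at the summit of all 4544 listed ATF4 peaks against their rank, both on log scales, with the 5 alpha-arrestin peaks marked and the median of the list as a dotted line. The first Arrdc3 peak stands at 14.9, Txnip at 5.45 and Arrdc1 at 4.67, while the 2 inner Arrdc3 peaks, at 3.32 and 3.52, lie just above the median of 3.30.

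**Figure D2:**
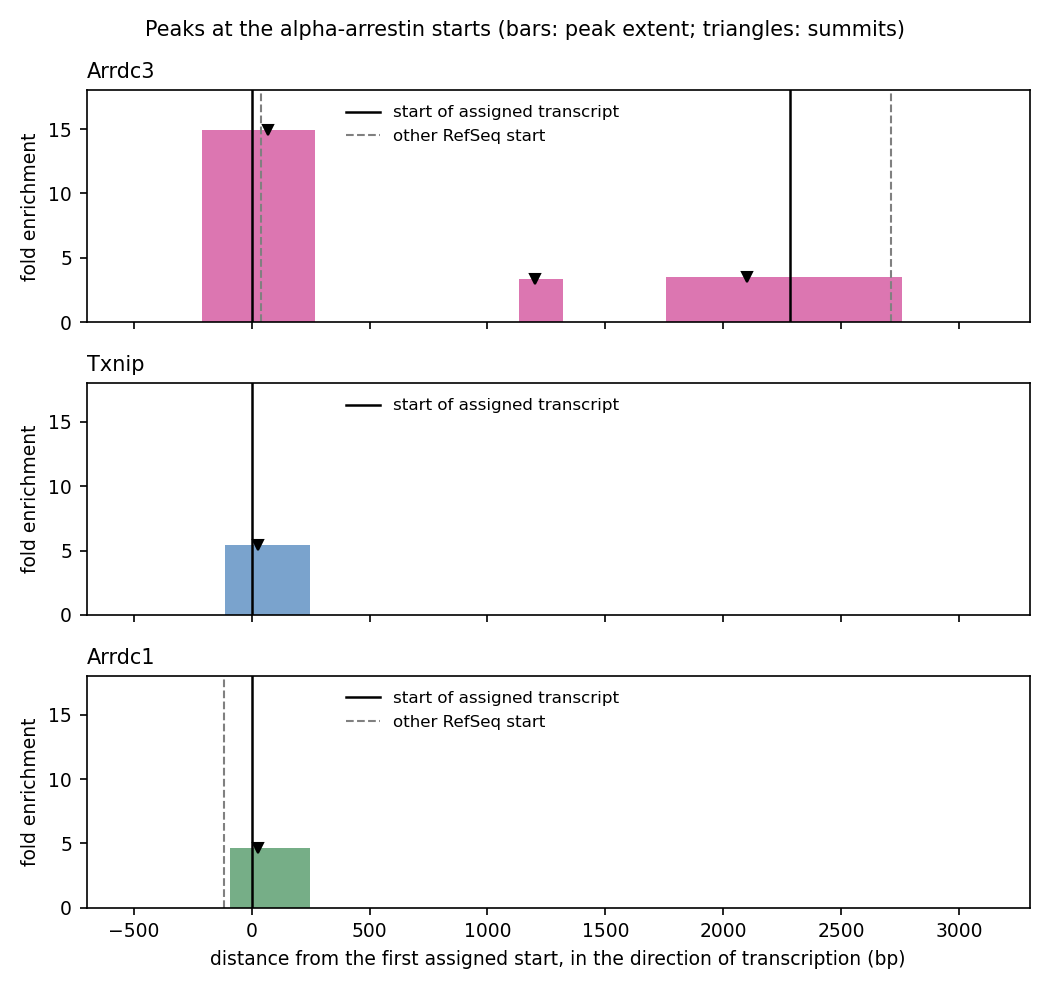
Position and height of the peaks at Arrdc3, Txnip and Arrdc1, against the distance in bp from the first assigned transcript start, in the direction of transcription. Bars span each peak with the fold enrichment as height, triangles mark summits, solid lines assigned starts and dashed lines other RefSeq starts. The first Arrdc3, the Txnip and the Arrdc1 summits lie 68, 26 and 27 bp after the assigned start, and the third Arrdc3 peak covers both inner starts.

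The third Arrdc3 peak also stood high in −log10 q for its fold enrichment. Of the 100 peaks closest to it in fold enrichment, 97 had a lower −log10 q and 96 were narrower. For Arrdc1 the count with a lower −log10 q was 74 of 100. It was 68 of 100 for the first Arrdc3 peak and 40 of 100 for the middle Arrdc3 peak. The 100 peaks closest to the first Arrdc3 peak spanned a wide range of fold enrichment, from 8.66 to 25.3. Those closest to the middle Arrdc3 peak spanned 3.29 to 3.35, so these 2 counts are not alike. The list gives no read counts that would show what sets the −log10 q values apart.

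**Figure D3:**
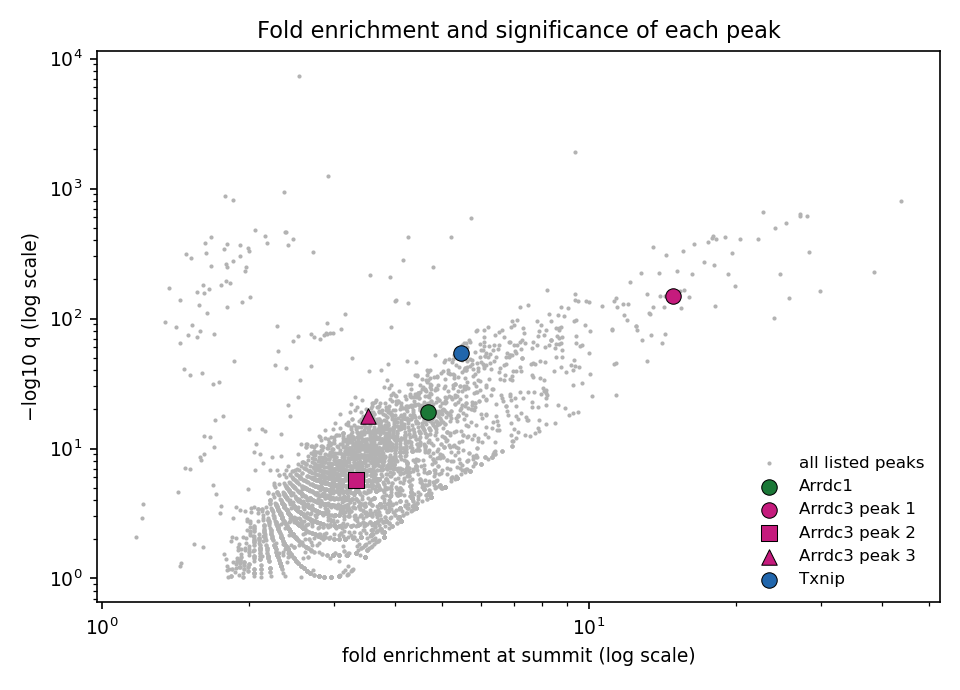
Each listed peak by fold enrichment at the summit and −log10 q, both on log scales, with the alpha-arrestin peaks marked. The Txnip peak at 54.5 and the third Arrdc3 peak at 17.9 lie toward the upper edge of the cloud at their fold enrichment, and the middle Arrdc3 peak at 5.71 lies within it.

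Arrdc2 and Arrdc4 had no assigned peak, and none was listed over their gene spans. For Arrdc2, on chromosome 8 at 70835129 to 70839720, the nearest peak lay 53.8 kb away at the promoter of the iodide transporter gene Slc5a5, with a fold enrichment of 3.46. For Arrdc4, on chromosome 7 at 68736994 to 68749238, the nearest peak lay 454 kb away in an intron assigned to Gm16157, with a fold enrichment of 3.12. Over all protein-coding genes the median distance from the gene span to a peak was 120 kb. Of these genes, 64.3% were at least as far from a peak as Arrdc2 and 23.6% at least as far as Arrdc4.

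Peaks assigned to other genes were also sought within 100 kb of the members with peaks. Around Arrdc3 there were none. Near Arrdc1 the list had a peak of 2.43 at the promoter of Mrpl41, a mitochondrial ribosomal protein gene, 39.9 kb away. Around Txnip it had peaks assigned to Gm25890 at 9.41, Gm22614 at 9.31, the tRNA gene n-TEctc13 at 2.43 and the RNA polymerase III subunit gene Polr3gl at 2.82. The last of these was the closest, 14.8 kb from Txnip.

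The CARE core TGATGNAA, sought on both strands, was in none of the 7 promoter windows of the 5 genes. Each window held 300 bases, from 250 before a RefSeq start to 50 from it, and all 5 genes had at least 1. Of 32851 such windows in the genome, 3.97% held the core, and so did 3.98% of the 1333 windows that contained the summit of an ATF4 peak. Among the 126 windows with a summit from the 455 strongest peaks, 24 held it. Of the 10 windows, of 9 genes, with a summit at least as high as that of Arrdc3, 7 windows, of 6 genes, held it. It was always TGATGCAA, and the windows of Arrdc3, Cpm and Kmt5b did not hold it. Overlapping windows were counted separately, and those of Gm38424 shared the same summit and core.

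Some of the cores in windows with stronger summits than Arrdc3 are printed to show the letters that its window lacks, each on the strand that reads TGATG, with the core in capitals. They come from Chac1 (chr2:119351041-119351064, minus strand), which encodes a glutathione-degrading enzyme, the tRNA synthetase genes Aars (chr8:111033722-111033745, minus strand) and Iars (chr13:49682129-49682152, minus strand), and the endoplasmic reticulum stress gene Herpud1 (chr8:94386309-94386332, minus strand).
Chac1: ggcaggagTGATGCAAcggcaggg
Aars: ggctcggcTGATGCAAtgctcaag
Herpud1: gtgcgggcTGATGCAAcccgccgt
Iars: tctggaggTGATGCAAtactgaca

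These cores lay 40, 8, 1 and 3 bp from the summits of their peaks. In the 24 windows of the 455 strongest peaks that held a core, the median distance from core to summit was 9 bp, and it was at most 50 bp in 22. The Arrdc3 window ended 19 bases after the summit and the Txnip window 23 bases after it. The rest of these peaks, most of the Arrdc1 peak and the summits of both inner Arrdc3 peaks lie outside the windows and were not searched, since no genome sequence was used here. The CRE, TGACGTCA, and the AP-1 motif, TGANTCA, were likewise in no window of the 5 genes, and were in 1.79% and 7.81% of all windows.

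The Txnip promoter held a pair of E-box-like sequences 5 bases apart, CACGAG and CACGAG, inside the ATF4 peak. The stretch is printed with both sequences and the bases between them in capitals (chr3:96557867-96557893, plus strand).
Txnip: ctgtgCACGAGGGCTGCACGAGcctcc

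Its centre lay 103 bp upstream of the summit, and all 17 bases lay within the peak. The pattern of CACGNG repeated on the same strand with 5 bases between was in 16 of 32851 windows. It was chosen after the Txnip sequence was seen, so the Txnip window holds it by design. Of the 16 windows, of 15 genes, 2 contained an ATF4 summit, those of Txnip and the NF-κB gene Nfkb2, at 3.51. A summit was contained in 4.06% of all windows. Txnip was also selected for its peak, so it counts among the 2 by choice. The 2 shares therefore cannot show whether the pattern goes with a summit. The same spacing with a complete E-box, CACGTG, on both sides was in 0 windows. A forkhead motif, TGTTTAC, and a glucocorticoid receptor core, ACANNNTGT, were also found in the Txnip window, outside the peak, and in no other window of the 5 genes. They were in 3.65% and 6.85% of all windows.

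The Arrdc4 window, without a peak, held 1 E-box and 6 CCAAT boxes, the binding sequence of the factor NF-Y. Of all windows, 7.15% held an E-box, 37.4% at least 1 CCAAT box and 0.0791%, or 26 windows, at least 6. The Arrdc2 window held 3 CCAAT boxes, and 3.37% of all windows held at least 3. The Txnip window held 2, of which 1 lay inside the peak, and 11.7% of all windows held at least 2. The single CCAAT of Arrdc3 lay inside its peak, 239 bp upstream of the summit, and the Arrdc1 window held none.

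The windows also differed in base composition. The G and C share was 70% in the Arrdc3 window with the summit, 65.3% in that of Txnip, 64% at Arrdc1, 60% at Arrdc2 and 59% at Arrdc4. The median was 52.7% over all windows and 64.7% over those with an ATF4 summit. The ratio of observed to expected CpG was 0.88 at Arrdc3, 0.756 at Txnip, 0.648 at Arrdc2, 0.442 at Arrdc1 and 0.422 at Arrdc4, with a median of 0.384 over all windows and 0.867 over windows with a summit. The part of base composition in the presence of peaks was not tested.

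Most genes of the lists drawn up as related to the alpha-arrestins had no assigned peak, as was the case for most protein-coding genes. Of 70 genes in 7 lists, 13 had an assigned peak, or 18.6%, beside the 12.9% of all protein-coding genes. The median of their strongest fold enrichments was 3.24, beside 3.36 over all protein-coding genes with a peak. No peak was assigned to any of 11 glucose transporter genes, among them Slc2a1, which encodes GLUT1, and Slc2a3. Of 11 genes of the thioredoxin system, 3 had a promoter peak. These were Txn1, which encodes the thioredoxin that TXNIP binds, at 3.54, and the peroxiredoxin genes Prdx1 at 4.34 and Prdx5 at 3.30.

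Of 11 NEDD4 family ligases and their adaptors, 2 had a peak, beside 12.9% of all protein-coding genes. Both were adaptors, Ndfip1 at 3.24 and Ndfip2 at 3.12, each under the median of the list. No peak was assigned to a ligase gene of the list, such as Nedd4, Itch or Wwp1. In the MondoA and ChREBP network, 3 of 11 genes had a peak, which were Myc at 3.84, Mlxip, the gene of MondoA, at 3.79, and the repressor gene Mnt at 2.96. Mlxipl, the gene of ChREBP, and Mlx had none. Among 8 other arrestin-fold genes only Arrb2, which encodes a β-arrestin, had a peak, at 2.18. The sixth alpha-arrestin gene, Arrdc5, had none, and its nearest peak lay 349 kb away.

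Endosomal sorting genes had weak peaks at 3 of 11, Vps4a at 2.94, Tsg101 at 2.16 and Vps28 at 2.11, each under the median of the list. Of 7 partners in glucose and stress signalling, 1 had a peak. Ddit4, which encodes an inhibitor of mTORC1 that also forms a complex with TXNIP, had 5 peaks, some of them distal intergenic. The strongest by fold enrichment, at 6.77, lay 956 bp upstream of its start and had a −log10 q of 21.2. A peak over the start had a fold enrichment of 4.54 and a −log10 q of 21.7. Hk1, Hk2, Prkaa1, Prkaa2, Nlrp3 and Insr had none. Of these 70 genes, 1, Ddit4, had a peak among the 455 strongest, beside the 1.44% of all protein-coding genes.

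**Figure D4:**
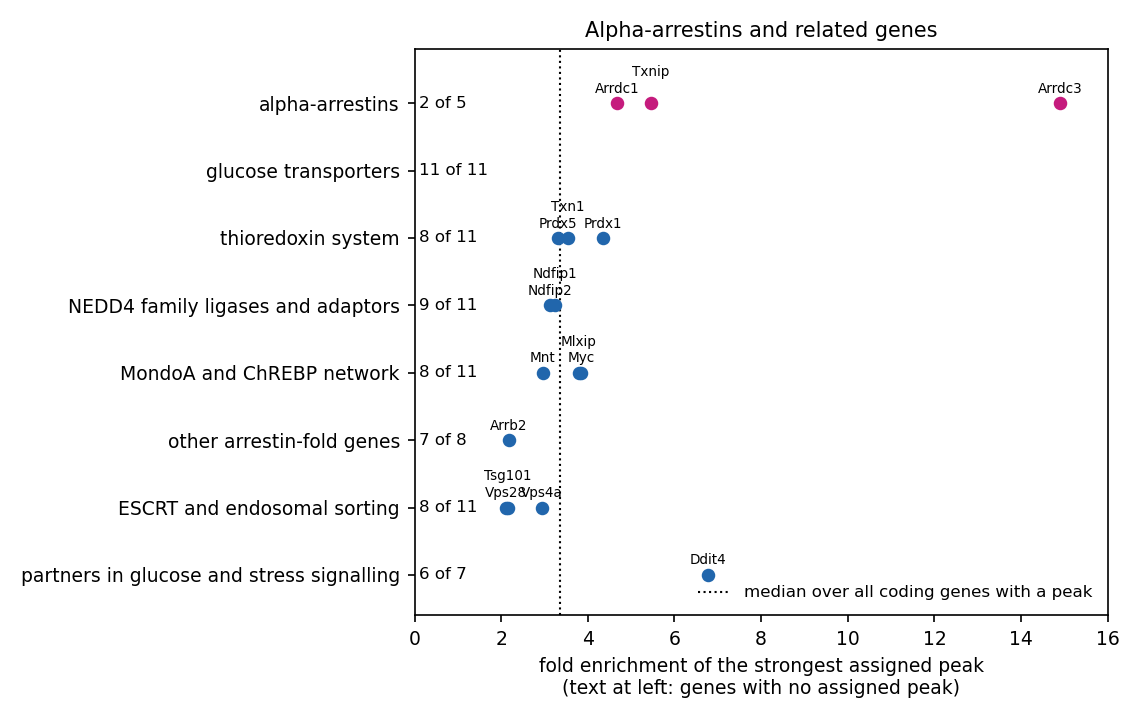
Fold enrichment of the strongest assigned peak of each gene, for the alpha-arrestins and 7 lists of related genes, with the number of genes without a peak at the left and the median over all protein-coding genes with a peak, 3.36, as a dotted line. The 3 alpha-arrestins lie above that median, the first of them at 14.9, and the glucose transporters have no point.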

How the data were processed

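Sheared chromatin was immunoprecipitated with an ATF4 antibody after fixation in 1% formaldehyde for 10 min, per the labels' protocols. The submitters' processing notes name build mm10 and, as tools, Trim Galore, Bowtie2, MACS2 and deepTools. Tool versions, pooling of replicates and the use of inputs were not given in the sources used here. Fold enrichment, −log10 p, −log10 q, score, annotation class and assigned gene of each peak are the authors' deposited values, in 1 list. Peak starts were raised by 1, after which the deposited distance to the start was recovered for 4544 of 4544 peaks. Peak numbers ran to 4549, and 5 were not in the list used here.

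Genes came from the RefSeq table of GRCm38.p6, the assembly of mm10. All 70 related genes matched, and 1 further gene of the lists is not reported here. Ranks, distances and motif matches were computed with Python 3.11.15, numpy 2.4.6 and pandas 2.3.3, and figures with matplotlib 3.10.9. The motif search was tested on simulated sequences of C and G with the CARE core planted, and the other motifs were not planted. Such sequences hold no core unless planted, so false matches were not tested. Motif windows were RefSeq promoters, 32851 in all, with none from chromosome 18.

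The members and lists were chosen with earlier results of these data known, so counts are descriptions. Named were all 5 members, up to 4 genes of each list with the strongest peaks, and genes with peaks within 100 kb of a member. Other genes are named after their values were seen: those of the strongest windows, Nfkb2, Gm15441, Gm16157, and listed genes without a peak.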

Additional observations from a re-analysis of the deposited data

How the results depend on the processing

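No paired analysis was possible because the list holds no value per sample, and leaving out a replicate was not possible for the same reason. Searching the peaks' own sequence was not run, since no genome was used. The depth is unknown, so it cannot be said what the absent peaks allow.

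The 3 members with a peak and their strongest fold enrichments stayed as given at a −log10 q of at least 3, at or above the median fold enrichment, and with peaks assigned to the nearest RefSeq start. The count of 3 members with a promoter peak stayed at the first 2 of these limits and within 1 kb of the start, and was not computed with the nearest start. All 5 member peaks exceeded those first 2 limits, the weakest at a −log10 q of 5.71 and a fold enrichment of 3.32. Neither limit could therefore change these results. With peaks under 500 bp apart merged, the 5 peaks became 4. In the 455 strongest peaks, a limit chosen after the data were seen, 2 peaks of 2 members were left. By −log10 q the percentile within the list was 86.6 for Arrdc1, 98.1 for Arrdc3 and 94.8 for Txnip, against 84.3, 99.3 and 90.7 by fold enrichment. No member had a CARE core in its windows as TGATGCAA or as TGATG, and 2, Arrdc1 and Arrdc2, had TGATGNAA with 1 mismatch, a search added later that matched 50.7% of all windows.

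At or above the median fold enrichment, the genes with a peak fell to 0 for NEDD4 ligases and adaptors, 0 for other arrestin-fold genes and 0 for endosomal sorting, and to 2 for the MondoA and ChREBP network. At a −log10 q of at least 3 they fell to 0 for other arrestin-fold genes and 1 for endosomal sorting. With the nearest RefSeq start they fell to 1 for NEDD4 ligases and adaptors and 0 for other arrestin-fold genes, and from 3 to 2 for the MondoA and ChREBP network and for endosomal sorting. Ndfip1, lost there, lies on chromosome 18, from which no start was used, and for Arrb2, Myc and Vps28 the cause was not tested.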
